A study of Mus musculus with 2 samples.

Results

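Cd4, Cd8a and Cd8b1 encode the co-receptors of the T cell receptor, and Zbtb7b, Tox and Patz1 encode nuclear factors that act on the choice between the CD4 and CD8 lineages. These 6 genes were taken by symbol, matched through the gene ID, out of 43346 genes in the deposited tables, and all 6 were found. Their annotated transcripts numbered 33 out of 103639 in the transcript tables. Levels came from 2 libraries of whole thymus, replicates 1 and 2 of a single group, from adult C57BL/6J mice aged 8 weeks. The labels describe mixed-sex littermates, samples pooled from males and females, 2 separate biosamples and 1 donor entry for both. With no second condition, the only comparison between samples is of 1 library with the other, and the spread between them may be technical in part. Sorted thymocyte subsets were not part of the series.

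The co-receptors bind the constant parts of MHC molecules on the presenting cell, CD4 those of class II and CD8 those of class I, and bring the kinase Lck to the T cell receptor. CD8 on thymocytes is a dimer of an alpha chain, from Cd8a, and a beta chain, from Cd8b1. Thymocytes that carry both CD4 and CD8 form the bulk of the cortex, and after positive selection on class II or class I they keep one co-receptor and silence the other. Zbtb7b encodes ThPOK, the factor that commits cells to the CD4 lineage, Tox encodes an HMG box protein needed for CD4 lineage development, and Patz1 encodes MAZR, a zinc finger protein that represses Zbtb7b and acts at the Cd8 locus.

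The sequences that the transcript results turn on are the alternative ends of the cytoplasmic tail of Cd8a, the alternative splice of Cd4 and an alternative end of Patz1. They are written 5′ to 3′ from GENCODE M21 transcripts on GRCm38. Cd8a lies on the plus strand. In Cd8a-201 (chr6:71374840-71376889, introns removed) the capitals mark a 31-base exon that Cd8a-202 lacks, and in Cd8a-202 (chr6:71374840-71376867) they mark the stop codon reached without it.
Cd8a-201: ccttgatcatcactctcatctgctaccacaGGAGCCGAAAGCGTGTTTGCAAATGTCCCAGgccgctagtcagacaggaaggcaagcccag
Cd8a-202: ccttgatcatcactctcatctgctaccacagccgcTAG
Cd8a-201 has 247 codons and Cd8a-202 has 222. After the third exon, Cd8a-201 has 80 further coding bases before its stop codon and Cd8a-202 has 5. The skipped exon holds the in-frame codons TGCAAATGTCCC, starting at codon 227, which spell the cysteine, any residue, cysteine, proline pattern known as the Lck binding motif of the CD8 alpha tail. In Cd4-201 the same pattern was found at codon 444 of 457, as TGCCAGTGCCCC, in exon 9 of 10.

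Cd4 lies on the minus strand. Cd4-201 (chr6:124866642-124867038, intron removed) and Cd4-203 (chr6:124866728-124867038) share the first 30 bases shown and differ at the acceptor of that exon 9. Capitals mark bases of the 82 that the alternative acceptor of Cd4-203 adds.
Cd4-201: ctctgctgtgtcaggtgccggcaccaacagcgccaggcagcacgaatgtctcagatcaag
Cd4-203: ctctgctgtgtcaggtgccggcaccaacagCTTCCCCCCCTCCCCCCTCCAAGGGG
The Patz1 sequence is shown for the exon that most junction reads leaving exon 3 entered, and it runs on into the exon after that. Patz1 lies on the plus strand. In Patz1-202 (from chr11:3299176, with introns 3299206-3306287 and 3306361-3307647 removed) capitals mark the stop codon. It follows 104 coding bases after the third exon and lies in the last exon of the model.
Patz1-202: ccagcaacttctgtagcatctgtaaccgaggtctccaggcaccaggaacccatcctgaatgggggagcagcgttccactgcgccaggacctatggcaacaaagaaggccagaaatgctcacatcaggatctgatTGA
After the third exon Patz1-201 has 416 coding bases, and it has 641 codons, against 537 for Patz1-202. Patz1-203 also has 537 codons, but enters another exon after exon 2 and ends in it, with 276 further coding bases.

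Replicate 1 held 49.3 M and replicate 2 held 63.1 M estimated fragments over all features. Counts differed between the libraries by more than sampling noise, with a median chi-square of 6.32 over 17989 genes against 0.455 for noise, so they were kept as 2 samples. The tissue label was checked against markers. All 10 thymocyte markers, among them Rag1 and Dntt of antigen receptor rearrangement, were detected, with a summed level of 2139 TPM in replicate 1 and 1996 TPM in replicate 2 (TPM, a level per length scaled to the same total in each library). All 7 thymic epithelial markers were detected as well, at 1024 and 1354 TPM in sum. Muscle and liver markers set the libraries apart: Alb, serum albumin, was at 44.2 TPM in replicate 1 and 0.180 in replicate 2, and Ckm, muscle creatine kinase, at 10.7 and 163 TPM.

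The 3 co-receptor genes were the most abundant of the 6. Cd8b1, the CD8 beta chain, stood at 585.7 TPM in replicate 1 and 668.9 TPM in replicate 2, a mean of 627 ± 58.8 (SD, n = 2). Cd8a, the CD8 alpha chain, stood at 514.6 and 490.7 TPM, a mean of 503 ± 16.9. Cd4 stood at 459.7 and 445.6 TPM, a mean of 453 ± 9.96. Among the 12949 protein-coding genes whose mean reached 1 TPM they ranked 151, 202 and 242, so each lay within the top 2% of that list. In bulk tissue, fewer cells of a type and less RNA per cell cannot be told apart, and none of these levels says how many cells carried CD4, CD8 or both.

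The fate regulators were lower, and differed from each other by more than the co-receptors did. Patz1 was at 203.9 TPM in replicate 1 and 170.0 TPM in replicate 2, a mean of 187 ± 24.0 (SD, n = 2), rank 720. Tox was at 73.9 and 58.9 TPM, a mean of 66.4 ± 10.6, rank 2378. Zbtb7b was at 50 and 51.4 TPM, a mean of 50.7 ± 1.00, rank 3045. The order Cd8b1, Cd8a, Cd4, Patz1, Tox, Zbtb7b was the same in both libraries, and no neighbouring pair overlapped in TPM. The closest neighbours were Cd8a and Cd4, 490.7 TPM at the lowest against 459.7 at the highest, and Tox and Zbtb7b, 58.9 against 51.4. No test of the order was made with n = 2.

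**Figure D1:**
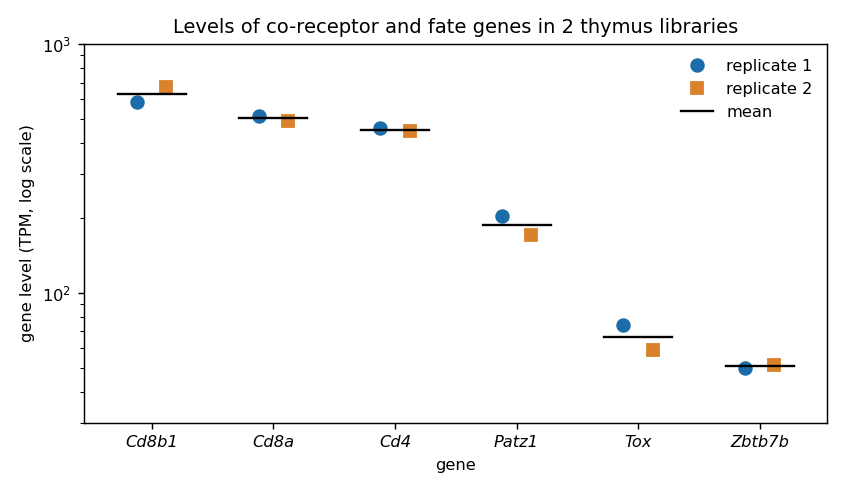
TPM of each gene (vertical axis, log scale) in replicate 1 (circles) and replicate 2 (squares), with black lines at the means. The co-receptors sit between 445.6 and 668.9 TPM, and the points of neighbouring genes do not overlap, with Zbtb7b lowest at 50 and 51.4.

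The order among the co-receptors rested on the division by length. Fragments per gene, not divided by length, were 24696 and 39070 for Cd8b1, 52313 and 69140 for Cd8a, and 44449 and 60184 for Cd4. Cd8b1 was thus the lowest of the 3 by fragments and the highest per length, since its effective length was 1202 and 1201 bases against 2899 and 2898 for Cd8a. The single Cd8b1 transcript of the tables, Cd8b1-201, is 1418 bases long there and 1483 in GENCODE M21. On the TPM scale the ratio of Cd8b1 to Cd8a was 1.14 in replicate 1 and 1.36 in replicate 2, and on CPM, fragments scaled to library size alone, the mean ratio was 0.519, the other way round.

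The ratio of Cd4 to Cd8a was the steadiest of the co-receptor ratios. It was 0.893 in replicate 1 and 0.908 in replicate 2 on the TPM scale, while Cd4 to Cd8b1 was 0.785 and 0.666. Lck, the kinase that both co-receptors carry, was at 1327 and 1454 TPM. That is 2.89 and 3.26 times the Cd4 level, and 2.58 and 2.96 times the Cd8a level. Lag3, a relative of Cd4 that also binds class II, was at 23.2 and 23.8 TPM, so Cd4 exceeded it by 19.8 and 18.8 times.

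For the regulators, Zbtb7b was 0.109 of the Cd4 level in replicate 1 and 0.115 in replicate 2. Patz1, its repressor, exceeded Zbtb7b by 4.08 and 3.31 times. Runx3, the factor that silences Cd4 in the CD8 lineage, was at 28.5 and 19.3 TPM, and the ratio of Zbtb7b to Runx3 was 1.75 and 2.67. Runx1, which acts on Cd4 silencing in earlier thymocytes, was at 107.9 and 69.7 TPM. Ratios to the Runx genes moved more between the libraries than the ratio of Zbtb7b to Cd4 did, and both Runx genes were lower in replicate 2.

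Paralogs showed that the named factor was not always the family member with the highest level. Zbtb7a, a close relative of Zbtb7b, was at 73.2 and 51.8 TPM, so Zbtb7b stood at 0.683 of it in replicate 1 and 0.993 in replicate 2. Zbtb7c was at 2.27 and 2.32 TPM. Tox exceeded Tox2 by 3.70 and 4.04 times, and Tox3 was at 7.05 and 6.17 TPM. Tox4, a broadly expressed relative, was at 60.1 and 74.99 TPM, below Tox in replicate 1 and above it in replicate 2, so the order of these 2 genes did not hold across the libraries.

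Between the libraries, none of the 6 genes moved past 1.5-fold. On the log2(TPM + 0.1) scale, replicate 2 minus replicate 1, the differences were -0.33 for Tox, -0.26 for Patz1, -0.07 for Cd8a, -0.04 for Cd4, 0.04 for Zbtb7b and 0.19 for Cd8b1. Of the 14360 genes whose mean reached 1 TPM, 12% were past 1.5-fold, 6.34% with a higher and 5.65% with a lower level in replicate 2. For 6 genes, a count of 0 is near that background. Among the 3061 genes between 50 and 700 TPM, the span of the members, the median size of the difference was 0.168 and 6.34% were past the fold. The difference of Zbtb7b was larger than that of 13.2% of those genes and that of Tox larger than that of 77.7%. With 1 library on each side there is no replicate check of any of these differences.

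**Figure D2:**
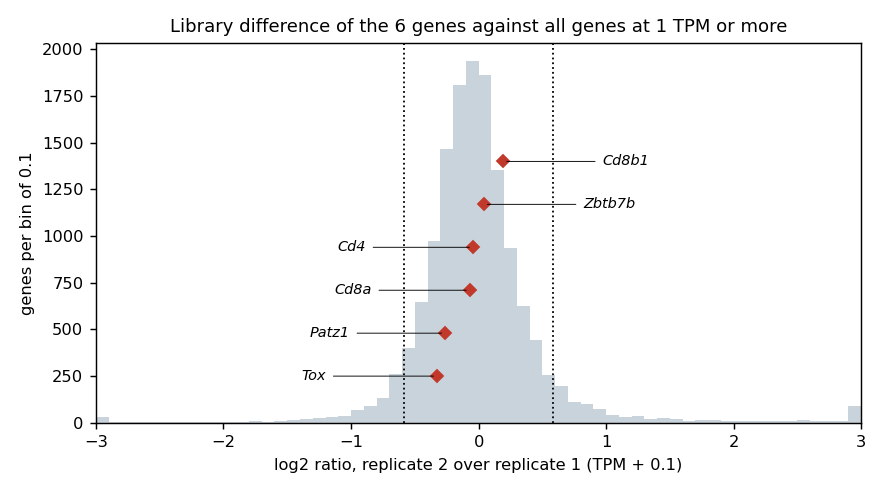
Log2 ratio of replicate 2 over replicate 1 (horizontal axis, values beyond 3 drawn in the end bars) for 14360 genes, as genes per bin of 0.1 (grey bars, vertical axis), with the 6 genes as red diamonds placed at arbitrary heights. Dotted lines mark 1.5-fold, and the 6 genes lie between them, from -0.33 for Tox to 0.19 for Cd8b1.

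The genes known to act with the members were taken from lists of textbook partners. In the list of CD4 lineage factors, 3 of 8 were past 1.5-fold, all lower in replicate 2, and the median log2 difference was -0.47 against -0.04 over all 14360 genes. Those 3 were Gata3, a zinc finger factor upstream of Zbtb7b, at 103.5 and 67.8 TPM, Bcl11b, a T lineage commitment factor, at 474.0 and 273.1 TPM, and Ets1 at 333.2 and 213.6 TPM. Tcf7, an HMG box factor needed for Zbtb7b expression, was the highest of the list at 2747 and 2299 TPM. Satb1, a chromatin organiser, was at 873.0 and 687.7 TPM and Tcf3, an E protein, at 356.1 and 268.9 TPM. Zbtb7b, at 50 and 51.4 TPM, was within 1.5-fold, and so was Cd4.

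Among CD8 lineage factors, 11 of 12 were detected and 1 was past 1.5-fold, Runx1, which was lower in replicate 2. That is 1 of 11 beside 12% of all genes, and the median log2 difference of the 11 was -0.33. The highest levels were those of Socs1, an inhibitor of cytokine signals, at 781.5 and 544.6 TPM. Stat5b and Stat5a, which carry the interleukin 7 signal, were at 171.1 and 140.6 TPM and at 134.6 and 107.2 TPM. Irf1, an interferon factor, was at 135.9 and 133.4 TPM. Eomes, a factor of memory and effector CD8 cells, was at 1.18 and 0.620 TPM, below the detection mean. In both lineage lists, 0 genes were past 1.5-fold with a higher level in replicate 2, beside 6.34% of all genes.

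Of the chromatin factors and co-factors that act at the Cd4 and Cd8 loci, 3 of 12 were past 1.5-fold, all lower in replicate 2, with a median of -0.47. Ikzf1, or Ikaros, was at 771.3 and 507.5 TPM, Chd4, the ATPase of the NuRD complex, at 178.2 and 101.3 TPM, and Smarcc1, a subunit of the BAF complex, at 49.4 and 31.6 TPM. Tcf12, the E protein HEB that acts on Cd4, was at 334.6 and 327.0 TPM, and Ncor1, a co-repressor, at 211.2 and 169.4 TPM. Hdac1, a histone deacetylase, was at 168.0 and 160.5 TPM. In the 2 lists with 3 calls, the shares were above the 5.65% of all genes that were lower by as much. The lists are small, and no test between 2 single libraries was made.

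Lck and the MHC genes that the co-receptors bind were higher in replicate 2, each by less than 1.5-fold. None of these 7 genes was past the fold, and their median log2 difference was 0.30. H2-Ab1, a class II beta chain, was at 2137 and 2977 TPM, H2-K1, a class I heavy chain, at 1174 and 1448 TPM, and B2m, the class I light chain, at 930 and 1009 TPM. Summed markers of other cell types also differed between the libraries. Thymic epithelial markers were 1.32 times as high in replicate 2 in sum, and, chosen after the values were seen, 1.13 times without Prss16, a thymic protease at 536.7 and 800.9 TPM. Their median log2 difference was 0.19, and Epcam was at -0.35. Macrophage markers, 7 of 7 detected, summed to 782 and 1021 TPM. Fat markers, 5 of 5 detected, summed to 538 and 293 TPM, with Ucp1, the uncoupling protein of brown fat, at 345.6 and 123.5 TPM. Plin1, at 50.9 and 37.4 TPM, and Cidec, at 96.7 and 80.85 TPM, were lower in replicate 2 by less than 1.5-fold. Adipoq, at 43.9 and 48.4 TPM, and Lep, at 1.09 and 2.41 TPM, were higher, so the sum mostly follows Ucp1. Dendritic cell markers, 8 of 8 detected, summed to 49.7 and 55.7 TPM. Of these 8, Itgax, at 6.55 and 10.5 TPM, and Xcr1, at 3.63 and 5.53 TPM, were past 1.5-fold and higher in replicate 2. Cd209a, at 1.44 and 0.7 TPM, was past 1.5-fold and lower. Over all genes, 6.34% were higher and 5.65% lower by as much. B cell markers, 6 of 6 detected, summed to 87.2 and 71.5 TPM. Of 6 NK and innate lymphoid markers 3 were detected, and Ncr1, a defining NK receptor, was at 0.480 and 0.170 TPM. Some dendritic cells and macrophages are known to carry CD4 or CD8 alpha, and their part in the co-receptor levels was not tested.

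Other BTB zinc finger factors of lymphocytes, the protein class of Zbtb7b and Patz1, ranged from 2.01 to 88.9 TPM in mean level, so Patz1 at 187 TPM stood above all 8 of them. Of these 8, 1 was past 1.5-fold, a share near the 12% of all genes: Zbtb32, at 1.59 and 2.50 TPM. Bcl6 was the highest at 96.8 and 81.0 TPM, followed by Zbtb17, the Myc partner Miz1, at 73.4 and 77.9 TPM, Zbtb25 at 24.0 and 17.4 TPM and Zbtb20 at 11.4 and 15.1 TPM. Zbtb16, or PLZF of innate-like T cells, was at 1.93 and 2.09 TPM.

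At the transcript level, the 6 genes fell into those with 1 main form and those with several. Cd4-201, the full-length coding form, held 92.9% of the Cd4 transcript level in replicate 1 and 93.7% in replicate 2. Tox-201 held 94.5% and 92.9%, and Tox-203, a form with a retained intron, held 4.28% and 5.06%. Cd8b1-201 was the single Cd8b1 transcript of the tables. The median leading share was 67.0% over 9858 detected genes with several transcripts, and 82.2% of these had a lower leading share than Cd4 and 82.8% a lower one than Tox.

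Cd8a was split almost evenly between the long-tailed and the short-tailed form. Cd8a-201, which keeps the 31-base exon, held 51.0% of Cd8a in replicate 1 and 50.2% in replicate 2, and Cd8a-202 held 49.0% and 49.8%. In TPM these were 262.5 and 246.2 for Cd8a-201 and 252.1 and 244.6 for Cd8a-202. The shares of the 2 libraries thus differed by less than 1 percentage point. The short tail lacks the codons of the Lck binding pattern printed above.

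Zbtb7b was divided among first exons. Zbtb7b-201, which starts at the upstream promoter, held 46.5% and 45.4%, and Zbtb7b-203, which starts downstream of it, held 33.0% and 35.6%. Zbtb7b-201, Zbtb7b-202, Zbtb7b-203 and Zbtb7b-204 each have 544 codons and differ in the exons before the coding part. Zbtb7b-209, a short model of 481 bases, held 9.34% and 9.12% of the level but 0.789% and 0.753% of the fragments. Zbtb7b-202 held 6.18% and 3.99%.

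Patz1 had the lowest leading share of the 6 genes. Patz1-203, with 537 codons, held 34.8% and 36.1%, a mean that was above the leading share of 6.98% of the 9858 genes. Patz1-201, with 641 codons, held 21.4% and 23.1%, and Patz1-202 held 13.7% and 16.1%. Patz1-209, a model of 798 bases with no coding part, held 18.6% and 11.8%. The 6 coding forms together made up 72.1% of the Patz1 level in replicate 1 and 78.1% in replicate 2. In TPM, Patz1-209 was at 37.9 and 20.1, a larger relative difference than that of Patz1-203, at 70.9 and 61.3.

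**Figure D3:**
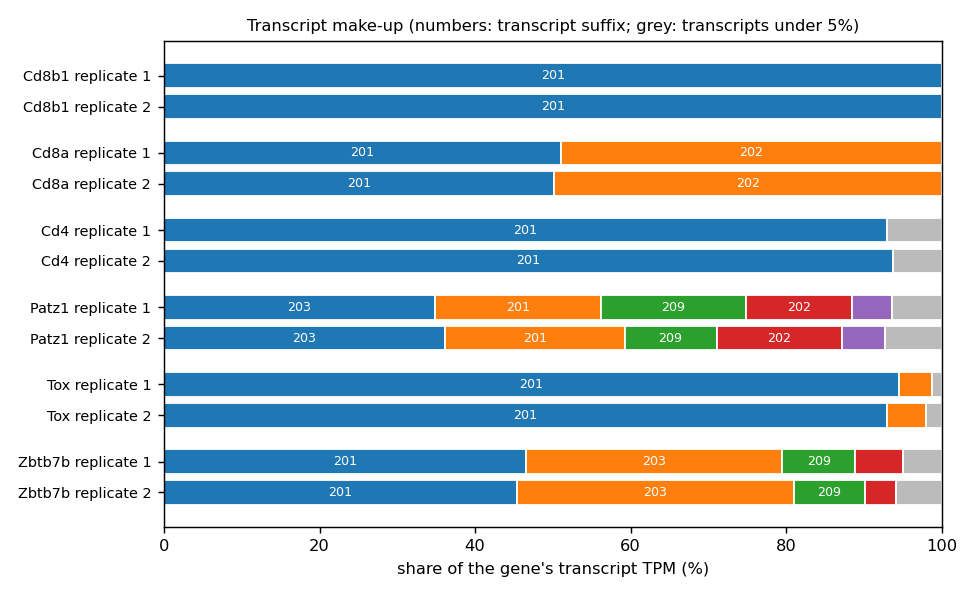
Share of each gene's transcript level (horizontal axis, percent of TPM) by transcript, 1 bar for each library, with transcripts at or above 5% in either library in colour and the rest in grey. Cd8a is split at 51.0% and 50.2% for Cd8a-201, while Patz1 is spread over 5 forms with Patz1-203 at 34.8% and 36.1%.

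Reads that span introns gave a second measure. The deposited junction list is on mm9 and sums the reads of both libraries, so it has no spread between samples, and intervals given for it are exact Clopper-Pearson 95% intervals that cover counting error only. Junctions were tied to the genes by unbroken runs of at least 3 introns with the same lengths and spacing. Of 57 annotated introns of the 6 genes, 50 had reads and 41 had at least 10.

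Cd8a had the most reads per intron. The 4 introns of Cd8a-201 held 12593, 16340, 12041 and 5306 reads from 5′ to 3′. The 5 introns of Cd8b1-201 held 5521, 5472, 9934, 8206 and 9209 reads. Coverage of the Cd4 introns was lower and less even, with 527, 3012, 477, 359, 1512, 837, 2055, 2913 and 7430 reads in order. The last Cd4 intron held the most reads, intron 2 came next, and introns 3 and 4 held the fewest.

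The regulators had fewer junction reads. The 8 introns of Tox-201 held 233, 1463, 1381, 381, 62, 1014, 4244 and 792 reads, the first of them across an intron of 147963 bases. The 2 introns of Patz1-203 held 978 and 919 reads, and those of Zbtb7b-201 held 168 and 536. The highest intron exceeded the lowest by 68.5 times in Tox and 20.7 times in Cd4, against a median of 9.43 times over the 4000 matched genes with a median of at least 100 reads and no intron at 0. For Patz1 it was 1.06 times, over 2 introns.

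**Figure D4:**
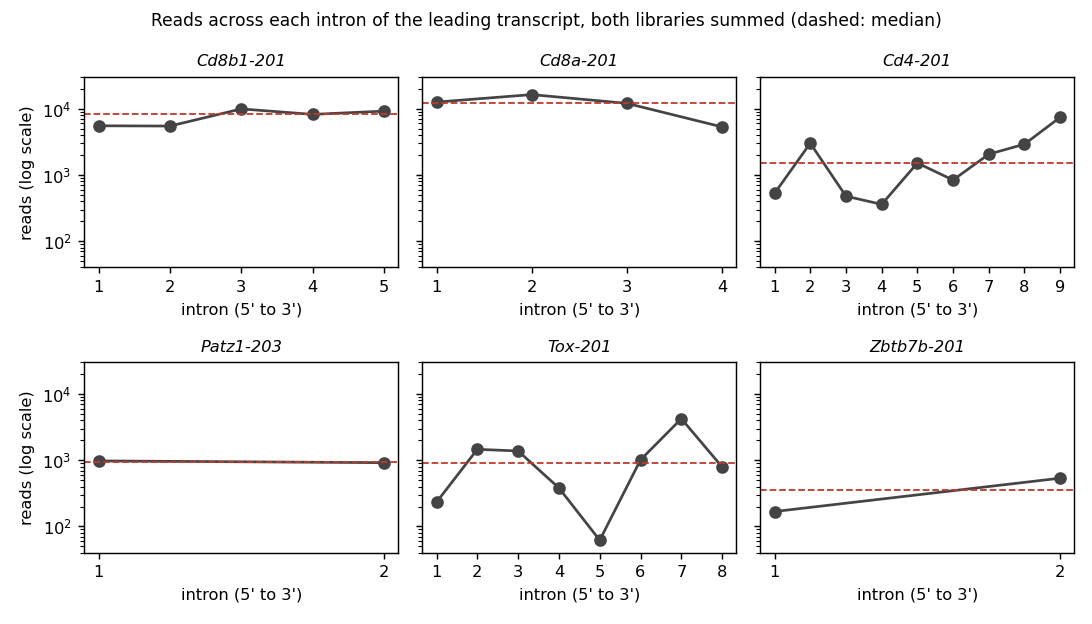
Reads across each intron of the leading transcript (vertical axis, log scale, both libraries summed), ordered 5′ to 3′ (horizontal axis), with the median as a dashed line. Cd8a and Cd8b1 stay between 5306 and 16340 reads, while Cd4 runs from 359 to 7430 and Tox from 62 to 4244.

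Cd4 was the lowest co-receptor by both measures, but by different margins, and the order of Cd8a and Cd8b1 was reversed. By the median over the introns of the leading transcript, Cd8a had 12317 reads, Cd8b1 8206 and Cd4 1512, so Cd8a exceeded Cd4 by 8.15 times, against 1.11 times on the TPM scale. The intron counts overlapped, with the lowest Cd8a intron at 5306 reads and the highest Cd4 intron at 7430. Reads per intron divided by mean TPM were 24.5 for Cd8a, above 99.4% of 10555 protein-coding genes whose junctions were matched, and 3.34 for Cd4, above 27.6%. The median of those genes was 5.06, with 5% of them below 0.882 and 5% above 12.8. Tox at 13.6 and Cd8b1 at 13.1 were also above the upper bound, while Zbtb7b at 6.94 and Patz1 at 5.07 were nearer the median.

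**Figure D5:**
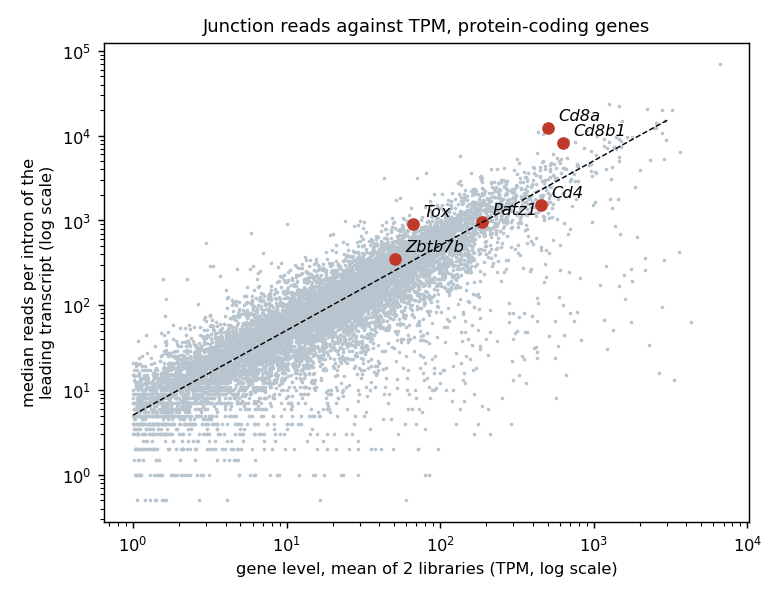
Median reads per intron of the leading transcript (vertical axis, log scale, both libraries summed) against mean TPM (horizontal axis, log scale) for protein-coding genes (grey points) and the 6 genes (red points), with genes at a median of 0 reads not drawn. The dashed line is the median of 5.06 reads per TPM, with Cd8a at 24.5 above it and Cd4 at 3.34 below it.

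The Cd8a tail exon could be counted from its own junctions. Skipping, as in Cd8a-202, had 5357 reads. Of 17398 reads that left the shared donor, these were 30.8% (30.1 to 31.5). Of 10663 reads that entered the shared acceptor, they were 50.2% (49.3 to 51.2), because the junction into the exon had 12041 reads and the one out of it 5306. The TPM share of Cd8a-202, 49.0% and 49.8%, lay at the acceptor value and above the donor value. With the mean of the 2 inclusion junctions the share was 38.2%. All 3 values put skipping above 30%.

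For Cd4, the alternative acceptor of Cd4-203 had 298 of 3211 reads from that donor, 9.28% (8.30 to 10.3). The transcript tables gave Cd4-203 1.79% and 1.40% of the Cd4 level. For Cd8b1, whose tables list 1 form, the junction list held skips of single exons: exon 2 in 84 of 5605 reads from its donor, 1.499% (1.20 to 1.85), exon 4 in 117 of 10051, 1.16% (0.964 to 1.39), and exon 5 in 30 of 8236, 0.364% (0.246 to 0.520). Exon 3 was skipped in 0 of 5472 reads, which allows a share of up to 0.0548% with 3 reads as the limit for a count of 0, and of 0.0674% by the exact interval. These skips lie outside the annotated forms and were low beside the main path.

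For Zbtb7b, 247 reads joined an alternative 5′ exon to the shared coding exon. The first exon of Zbtb7b-201 had 168 of them, 68.0% (61.8 to 73.8), that of Zbtb7b-203 had 68, 27.5% (22.1 to 33.6), that of Zbtb7b-202 had 8, and the second exon of Zbtb7b-204 had 3. The exon of Zbtb7b-201 thus led, with a larger share by junction reads than the 46.5% and 45.4% of Zbtb7b-201 by TPM. Its 168-read intron also belongs to short models such as Zbtb7b-209, in which it follows a further 5′ intron, and that intron of Zbtb7b-209 had 14 reads.

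For Patz1, 919 of 1855 reads that left exon 2 entered the exon in which Patz1-203 ends, 49.5% (47.2 to 51.8). That junction is shared with models that go on, and 284 reads left the same exon for exon 3, as in Patz1-207. From exon 3, 440 of 654 reads, 67.3% (63.5 to 70.9), entered the next exon of Patz1-202, which lies before the one with its stop codon. Another 192, 29.4% (25.9 to 33.0), skipped that exon by the junction of Patz1-201. Each of these junctions is shared with shorter models. By TPM the order of these 2 was the other way, with Patz1-201 at 21.4% and 23.1% and Patz1-202 at 13.7% and 16.1%. The last intron of the Patz1-202 model had 0 reads, while a junction of the same 1287 bases set 2 bases upstream at both ends had 113. The intron of Patz1-209 had 9 reads, against 978 for the first intron of Patz1-203, while the tables gave Patz1-209 774 and 567 fragments. The first exon of Patz1-204, Patz1-207 and Patz1-210, at the gene's upstream start, had 0 reads into exon 2.

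The starts of Zbtb7b are shown because its alternative 5′ exons divided the junction reads. RefSeq windows of 250 bases before a start were given for 3 of the 6 genes, on GRCm38.p6. For the upstream start, near that of Zbtb7b-201, the 98 bases next to it that lie outside annotated exons are given. For the downstream start, the window lies just before the first exon of Zbtb7b-204, whose 3′ part is also the first exon of Zbtb7b-203. Capitals mark matches on either strand to TGTGGT (RUNX) or GGGCGG (GC box).
Zbtb7b upstream (chr3:89393379-89393476, minus strand): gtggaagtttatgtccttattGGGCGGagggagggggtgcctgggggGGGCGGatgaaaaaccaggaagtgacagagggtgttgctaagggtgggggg
Zbtb7b downstream (chr3:89387672-89387921, minus strand): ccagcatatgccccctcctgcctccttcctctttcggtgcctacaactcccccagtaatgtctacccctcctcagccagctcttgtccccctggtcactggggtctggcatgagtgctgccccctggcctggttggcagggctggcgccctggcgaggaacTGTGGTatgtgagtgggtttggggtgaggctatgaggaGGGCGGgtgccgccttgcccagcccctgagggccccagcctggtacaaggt
The upstream stretch holds 2 GC box matches, and the rest of its window holds 1 match to CAGNTG (E box). The downstream window has 1 RUNX match and 1 GC box match. Over 32851 windows of this length, 14.0% held the RUNX letters, 32.7% those of the GC box and 44.8% those of the E box. Searched as well were the GATA motif as AGATAA, held by 9.99% of all windows, the TATA box as TATAAA, held by 12.4%, and the TCF motif as CTTTGA, held by 13.8%. None of these letters stood in either window. Matches describe letters and are not evidence of binding.

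In the genome, Cd8b1 and Cd8a lie on chromosome 6, both on the plus strand, with 35.9 kb and the lincRNA models Gm44110 and Gm44174 between them. Cd8b1 spans 71322788 to 71337494 and Cd8a spans 71373427 to 71379173. Cd4 lies on the same chromosome, from 124864692 to 124888221 on the minus strand, 708 bases from Gpr162, which was at 99.2 and 90.0 TPM. Zbtb7b lies on chromosome 3 from 89377644 to 89394776, minus strand, Tox on chromosome 4 from 6686353 to 6991557, minus strand, and Patz1 on chromosome 11 from 3288874 to 3309083, plus strand. Antisense or overlapping genes were low beside the members: Gm15417 over Zbtb7b was at 2.38 and 3.16 TPM, Gm11802 over Tox was listed at 0 and 0.140 TPM, Gm12592 over Patz1 was at 0.240 and 0.160 TPM, and Gm11944, which shares 88 bases with the end of Patz1 on the same strand, was at 5.86 and 4.73 TPM. The labels call the libraries stranded, and how the counting used strand is not given in the sources used here.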

How the data were processed

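Per the labels, 2 stranded libraries of polyadenylated thymus RNA longer than 200 nucleotides were sequenced as paired reads of 76 bases. The authors deposited, per library, gene and transcript tables of expected counts (estimated fragments), TPM and FPKM, and, per the file headers, bounds of a TPM interval whose level is not given. Per the deposited notes the tables are on mm10 with GENCODE M4. The deposited junction list, on mm9, gives counts of reads summed over both libraries. The aligner and the quantifier: not given in the sources used here.

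Symbols, classes and positions came from GENCODE M21 (42462 of 43346 genes matched). A gene was called detected from a mean of 1 TPM. Library ratios used log2(TPM + 0.1), which understates low genes, and a rule of 1.5-fold, with no test, since each side has 1 library. Members and lists were chosen with earlier results of these data known. Named were all members, the 4 highest genes of each pathway list, pathway list genes past the fold and transcripts at 5% or more. Further list genes were added after their values were seen. The cell type marker lists were outside this rule, and some of their genes past the fold are not named. Features that name no gene held 1.49% and 1.48% of fragments. Alternatives were FPKM, posterior mean TPM, CPM, TMM scaling of rounded counts (edgeR 4.0.16), other pseudocounts and filters, and each library alone. The summed level of the NK and innate lymphoid markers is not reported here. The fold rule was tried on simulated counts with sampling noise only. These libraries differed by more than that, so the trial gives no rate of false calls for them. The junction matching was tried on simulated lists in which every intron of the gene models used was present. Scripts ran in R 4.3.3 and in Python 3.11.15 with matplotlib 3.10.9, scipy 1.17.1, pandas 2.3.3 and numpy 2.4.6.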

Additional observations from a re-analysis of the deposited data

How the results depend on the processing

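With posterior mean TPM, levels and ratios of the members and shares of their leading transcripts moved by less than 1 SD between the libraries. The share of Zbtb7b-209, not a leading form, moved by more, from 9.34% and 9.12% to 9.57% and 9.28%. A single library gives the per-library values already printed and tests nothing further. None of the 6 genes was past 1.5-fold under any scaling, pseudocount or filter run. Mean levels in FPKM were 335 for Cd4, 372 for Cd8a, 466 for Cd8b1, 138.0 for Patz1, 49.0 for Tox and 37.6 for Zbtb7b. In TPM rescaled over protein-coding genes they were 569, 632, 790, 235, 83.3 and 63.8 in the same order. In CPM, with no division by length, they were 942 for Cd4, 1095 for Cd8a, 316 for Patz1, 181 for Tox and 121 for Zbtb7b. On that last scale the ratios were 0.860 for Cd4 to Cd8a, 1.67 for Cd4 to Cd8b1 and 0.519 for Cd8b1 to Cd8a, the last 2 in the other direction than in TPM. They were 1.76 for Patz1 to Tox, 2.62 for Patz1 to Zbtb7b and 0.129 for Zbtb7b to Cd4. The log2 difference of Cd4 between libraries, near 0, changed sign under TMM scaling (0.0042) and under rescaling over protein-coding genes (0.019). That of Patz1 was -0.13 under TMM scaling. With a minimum of 10 TPM, 6.74% of genes were past 1.5-fold, and 8.52% with a pseudocount of 1. As shares of expected counts, Cd4-201 held 97.5%, Patz1-203 42.6%, Tox-201 96.7% and Zbtb7b-201 52.7%. No paired analysis was possible because the series has a single group. Depth limits the junction shares of Zbtb7b most, which rest on 247 reads.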
